A study of Mus musculus with 20 samples.

Results

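Macrophages grown from the marrow of wild-type mice were compared with macrophages grown from other wild-type mice. The members were the 10 wild-type libraries of a 20-library RNA-seq series on the receptor Trem2, and they were chosen by their titles: WT Rep1 to Rep5 are called the first set here and WT Rep6 to Rep10 the second set. The series also holds 5 libraries from mice with a 5 bp Trem2 knockout (KO) and 5 from mice with an R47H substitution knocked in to Trem2 (R47H), which are used below only as a side view. All mice were C57BL/6 and aged 4 to 5 months, and no mutation, drug or stimulus distinguished the 2 wild-type sets. Marrow cells from femur and tibia were kept for 6 days in medium that held CSF-1 at 50 ng/ml, which drives marrow progenitors to become macrophages, and adherent cells were scraped and lysed in bulk. The protocols describe wild-type littermates of both mutants with 5 animals per genotype, but they do not say which wild-type library belongs to which litter, nor when each was cultured or sequenced. Litter, culture, handling and sequencing run therefore cannot be told apart in any difference between the sets.

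Marrow-derived macrophages are a primary culture that takes days to make, and their transcriptome responds to growth factor, serum, cell density, plastic and the minutes of harvest. Immediate early genes respond within minutes to such handling, chaperones of the cytosol and endoplasmic reticulum follow protein-folding load, and interferon-stimulated genes follow a low tonic interferon signal that macrophages make themselves. Antigen presentation by MHC class II and the receptors for dead cells and immune complexes mark the state of a mature macrophage.

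Levels are given in FPKQ, the authors' fragments-per-kilobase value on a scale set within each library, and differences are log2(FPKQ + 1) of the second set minus the first. A value of 1 FPKQ in a 2 kb gene stood for about 56.9 to 71.8 fragments per library, and this depth did not separate the sets (60.1 ± 4.21 in the first and 63.3 ± 6.01 in the second, SD, n = 5 each). Pearson correlations of log2 values ran from 0.990 to 0.995 within the first set, from 0.987 to 0.995 within the second and from 0.984 to 0.991 between them, and WT Rep9 had the lowest median correlation with its own set (0.988). Sex is not given in the labels; by Xist and 4 Y-linked genes the first set held 3 libraries of female and 2 of male pattern, and the second 1 and 4. For many of the lists below, the median over the male-pattern libraries alone (2 against 4) is given beside the result. Where it is missing, a part of sex is not excluded.

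In all, 10803 genes averaged 1 FPKQ or more over the 10 libraries, and 1424 (13.2%) of them differed between the sets at an adjusted p under 0.05, 742 higher in the second set (6.87%) and 682 lower (6.31%). The differences were small: the median size among called genes was 0.262 on the log2 scale, a 1.20-fold difference, and 71 genes (0.657%) also differed at least 1.5-fold, 42 upward and 29 downward. The values of the sets did not overlap for 1230 genes (11.4%), of which 1003 were called, and 3294 (30.5%) had an unadjusted p under 0.05. The first principal component held 29.7% of the variance and put all 5 libraries of the first set at −11.9 to −4.39 and all 5 of the second at 4.49 to 16.5. The second component (17.6%) split libraries within the sets, with WT Rep9 (14.8) and WT Rep1 (9.68) at one end and WT Rep6 (−10.8) and WT Rep8 (−9.49) at the other, and the third (13.7%) followed the sex genes. Leaving out a library of the first set changed the count most, to 848 without WT Rep3, 816 without WT Rep4 and 881 without WT Rep5.

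**Figure D1:**
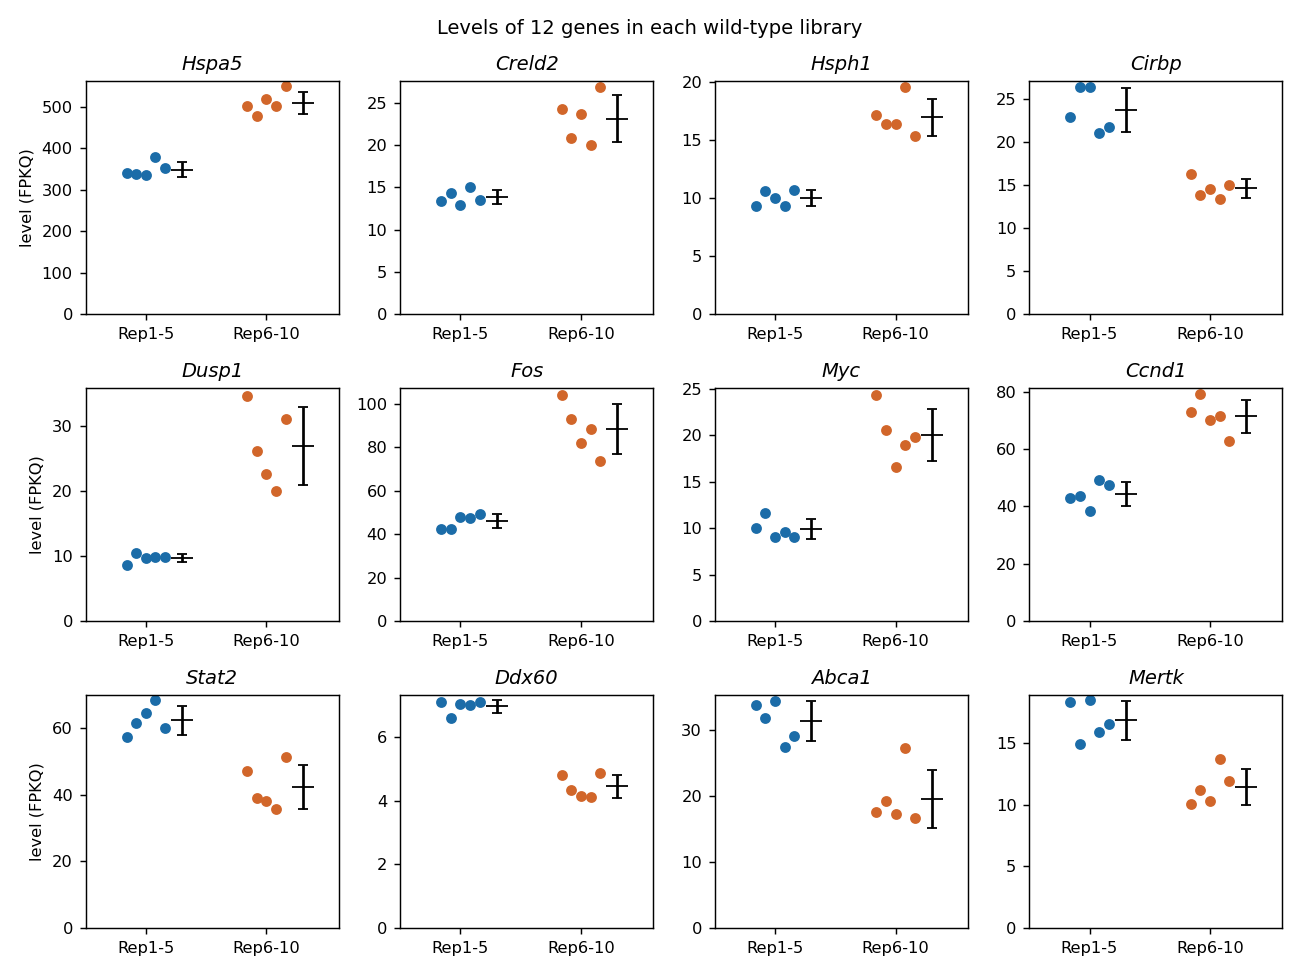
Levels of 12 genes (FPKQ, linear axis from 0) in each wild-type library, with points in replicate order, and the mean with its SD beside them (n = 5 per set). Hspa5, Creld2, Hsph1, Dusp1, Fos, Myc and Ccnd1 lay higher in every library of Rep6 to Rep10, and Cirbp, Stat2, Ddx60, Abca1 and Mertk lower in every one.

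The most complete shift was in genes of the endoplasmic reticulum. Of 20 genes in the list of the unfolded protein response, which matches the folding capacity of the organelle to its load, 15 rose in the second set and 1 fell, with a median of 0.247 against 0.003 over all genes tested. Hspa5 (chr2:34771970-34777547, GRCm38), the chaperone BiP that binds unfolded proteins and holds the stress sensors inactive, measured 339.9, 338, 335, 379 and 352 FPKQ in WT Rep1 to Rep5. In WT Rep6 to Rep10 it measured 502, 478, 518, 501 and 551 FPKQ. Every library of the second set thus exceeded every library of the first, by 1.46-fold in the means of log2 values (0.55 ± 0.0507, SE; adjusted p = 0.000134). Creld2 (chr15:88819646-88826683), a secreted stress-induced factor of the same compartment, rose from 13.4, 14.3, 12.9, 14.9991 and 13.5 FPKQ to 24.2, 20.8, 23.7, 19.97 and 26.9 FPKQ, a difference of 0.70 ± 0.0743 (SE; adjusted p = 0.00031). Pdia4, a disulfide isomerase, went from 38.6 ± 2.56 to 56.9 ± 2.74 FPKQ (SD, n = 5; 0.55, adjusted p = 0.000163), and Hsp90b1, the lumenal Hsp90 that folds Toll-like receptors and integrins, from 313 ± 7.40 to 416 ± 17.5 (0.41, adjusted p = 0.000242). Neither gene overlapped between the sets. Calr and Pdia3, the lectin chaperone and its partner isomerase that fold glycoproteins and load MHC class I, rose by 0.34 and 0.23. The member that fell was Ern1, the sensor kinase and nuclease Ire1, at 16.5, 14.97, 17.5, 13.2 and 14.2 FPKQ in the first set and 8.83, 10.8, 9.19, 10.2 and 10.4 FPKQ in the second (−0.58 ± 0.076, SE; adjusted p = 0.00111). The 4 members that did not pass, named after their values were seen, were Sdf2l1 (0.18), Sel1l (0.17), Xbp1 (0.15) and Edem1 (0.08), and Xbp1 is the transcript that Ire1 splices. Over male-pattern libraries the median of the list was 0.248, and all 16 called members kept their sign.

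**Figure D2:**
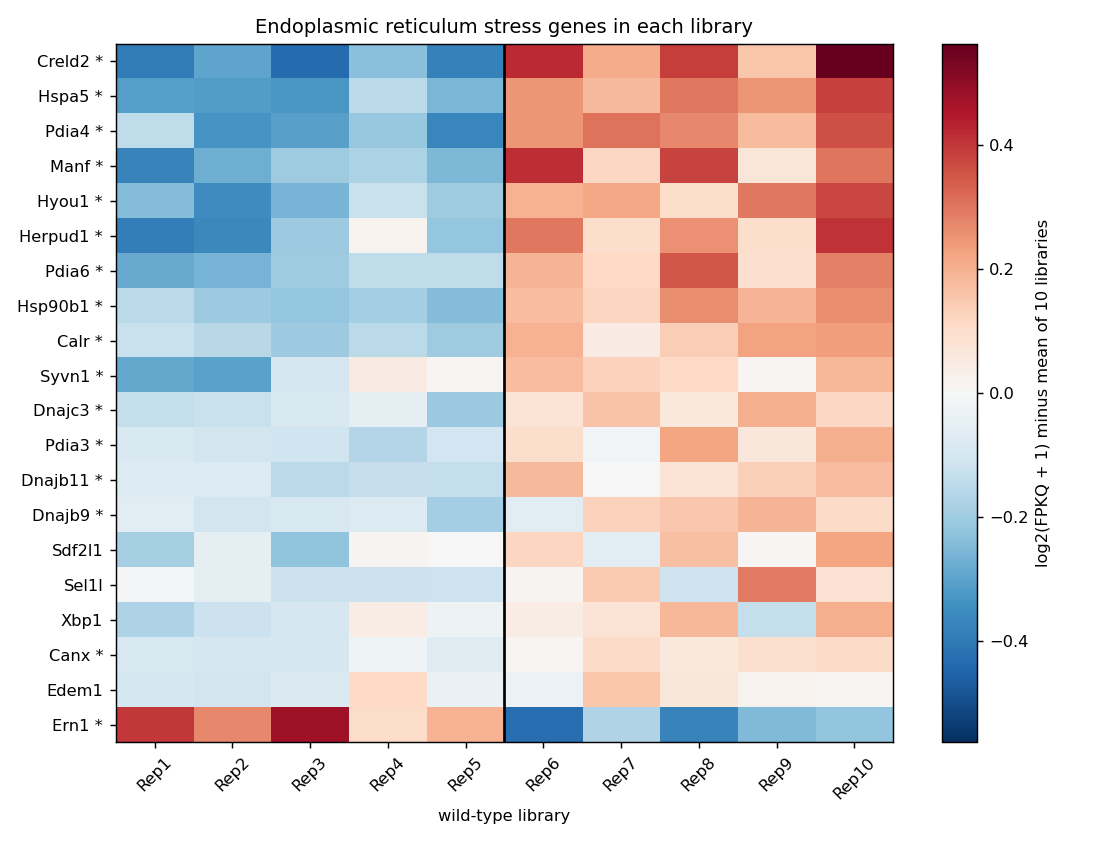
The 20 genes of the unfolded protein response list (rows, ordered by their difference; * adjusted p under 0.05) in the 10 wild-type libraries (columns), as log2(FPKQ + 1) minus the gene's mean over the libraries. The rows from Creld2 to Calr are below their mean in Rep1 to Rep5 and above it in Rep6 to Rep10, except Herpud1 in Rep4, and Ern1 runs the other way.

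Promoters of these genes are printed because the classical ER stress element, CCAAT and CCACG with 9 bases between them, stands in them. It was searched on both strands in the 250 bases upstream of RefSeq starts (GRCm38.p6) and was present in 8 of the 18 members with an entry, all 8 among the 14 called ones with an entry, against 0.156% of 8330 tested genes and 0.113% of 32851 promoters. The stretches below read 5′ to 3′ along the gene, with the element in capitals on whichever strand it was found.
Hspa5 (chr2:34772000-34772068, + strand): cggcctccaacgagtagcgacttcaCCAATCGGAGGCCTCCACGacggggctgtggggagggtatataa
Creld2 (chr15:88819495-88819563, + strand): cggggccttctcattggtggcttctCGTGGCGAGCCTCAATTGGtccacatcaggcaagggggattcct
Pdia6 (chr12:17266466-17266534, + strand): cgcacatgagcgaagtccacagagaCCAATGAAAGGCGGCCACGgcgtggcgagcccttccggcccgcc
Calr (chr8:84847050-84847118, − strand): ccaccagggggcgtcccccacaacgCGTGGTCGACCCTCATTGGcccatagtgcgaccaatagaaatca
Hsp90b1 (chr10:86705508-86705681, − strand): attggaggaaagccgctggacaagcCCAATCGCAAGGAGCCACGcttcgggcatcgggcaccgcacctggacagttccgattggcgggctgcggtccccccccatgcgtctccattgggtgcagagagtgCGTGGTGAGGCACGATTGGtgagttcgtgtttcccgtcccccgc
Hsp90b1 holds 2 copies in opposite orientation, and Creld2 and Calr hold the element in the reverse orientation. These matches describe the letters only; no binding was measured.

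Cytosolic chaperones moved the same way but less completely. Among 18 tested genes of heat shock and chaperones, 10 rose and none fell at an adjusted p under 0.05 (limma; 0 falls at an unadjusted p under 0.05), with a median of 0.242 (0.253 in male-pattern libraries); Hspa5 counts here too. Hsph1, the Hsp110 exchange factor for Hsp70, measured 9.33, 10.6, 9.97, 9.28 and 10.7 FPKQ in the first set and 17.1, 16.4, 16.4, 19.5 and 15.3 FPKQ in the second. The lowest library of the second set was well above the highest of the first, a 1.63-fold difference (0.71 ± 0.0649, SE; adjusted p = 0.000134). Hspa8, the constitutive Hsp70, rose from 896 ± 51.7 to 1134 ± 48.1 FPKQ, and Stip1, which bridges Hsp70 and Hsp90, from 46.7 ± 2.42 to 55.8 ± 1.57 (SD, n = 5; adjusted p = 0.00229 and 0.00432). The strictly inducible Hsp70 genes, named after their values were seen, were low and did not pass: Hspa1a had means of 2.02 ± 0.468 and 2.64 ± 0.570 FPKQ and Hspa1b of 2.80 ± 0.871 and 3.96 ± 0.785. These 2 genes are near-identical copies, so fragments may be divided between them. Of the 2 cold-inducible RNA-binding proteins, Cirbp (chr10:80165985-80172786) fell from 22.9, 26.4, 26.4, 21.1 and 21.7 FPKQ to 16.2, 13.9, 14.5, 13.4 and 15.04 FPKQ, with no overlap (−0.66 ± 0.0727, SE; adjusted p = 0.000378). Rbm3, the other, had 260.1 ± 20.9 and 253 ± 15.8 FPKQ (adjusted p = 0.738). A heat shock element, TTC, GAA and TTC with 2 bases between each, was found upstream of 2 of 14 list members with an entry and 1 of the 7 called, against 0.468% of tested genes. The 2 were Hspd1 and Hspe1, which overlap at their starts on opposite strands, so they may not be independent.

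Immediate early genes held the largest rise among called genes whose higher set mean reached the median level of tested genes (13.4 FPKQ). Dusp1 (chr17:26505590-26562128), a phosphatase that shuts off p38 and Jnk signalling, measured 8.64, 10.49, 9.69, 9.79 and 9.85 FPKQ in WT Rep1 to Rep5 and 34.5, 26.1, 22.5, 20.02 and 31.1 FPKQ in WT Rep6 to Rep10. The first set was tight, the second spread widely above it, and the difference was 2.56-fold (1.36 ± 0.12, SE; adjusted p = 0.000128). Fos, the AP-1 subunit induced by growth factors and stress, measured 42.3, 42.3, 47.9, 47.6 and 49.1 FPKQ and then 104, 92.9, 81.9, 88.3 and 73.8 FPKQ (0.92, adjusted p = 0.000128). Ier3, a feedback target of NF-κB and Erk signals, rose from 9.82 ± 1.12 to 18.8 ± 3.37 FPKQ, and Egr3, a zinc-finger factor, from 2.03 ± 0.229 to 3.30 ± 0.550 (SD, n = 5; adjusted p = 0.00137 and 0.00546). In all, 7 of 21 tested members rose and none fell (limma; 1 fall at an unadjusted p under 0.05), with a median of 0.159 (0.133 in male-pattern libraries). The family did not move as a block: Junb had 92.7 ± 3.02 and 101 ± 10.7 FPKQ (adjusted p = 0.235) and Egr1 4.67 ± 1.05 and 5.92 ± 0.894 (adjusted p = 0.109), both named after their values were seen. A cAMP response element, TGAC joined directly to GTCA, was found upstream of 3 of 18 members with an entry, Dusp1 the only one of 5 called, against 3.24% of tested genes; it is printed for the gene with the largest difference.
Dusp1 (chr17:26508583-26508640, − strand): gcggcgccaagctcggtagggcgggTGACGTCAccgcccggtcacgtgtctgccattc

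Of 16 tested genes in the list of G1 regulators and Myc, 2 rose and 1 fell, with a median of −0.042, so the list did not move one way. Myc, the growth-promoting transcription factor downstream of the CSF-1 receptor, measured 9.997, 11.7, 9.08, 9.54 and 9.08 FPKQ in the first set and 24.3, 20.5, 16.6, 18.9 and 19.8 FPKQ in the second, a 1.93-fold difference without overlap (adjusted p = 0.000165). Ccnd1, the cyclin D1 that responds to the same receptor, rose from 44.3 ± 4.18 to 71.4 ± 5.88 FPKQ (SD, n = 5; 0.68, adjusted p = 0.000308). Mxd1, which competes with Myc for their partner Max, fell from 4.95 ± 0.347 to 4.00 ± 0.233 FPKQ (−0.25, adjusted p = 0.0183). The next 4 genes were among the largest rises and belong to no growth list. Id2, an inhibitor of basic helix-loop-helix factors, rose from 85.7 ± 3.05 to 133 ± 7.58 FPKQ (0.62, adjusted p = 6.89e-05), and Ets2, a target of Erk signalling, from 13.3 ± 1.39 to 20.7 ± 2.22 (0.60, adjusted p = 0.00132). Gadd45g, a stress-induced regulator of growth arrest (0.71), and Bhlhe40, a repressor that restrains Il10 (0.60), were likewise higher in every library of the second set. Few genes of proliferation itself passed: 2 of 28 tested S-phase genes and none of 28 G2 and M phase genes were called, with medians of −0.021 and 0.035 (limma; 2 of the G2 and M phase genes had an unadjusted p under 0.05).

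Inflammatory feedback genes shifted upward to a lesser degree. In the list of inflammatory cytokines and NF-κB feedback, 7 of 29 tested genes rose and none fell (limma; 2 falls at an unadjusted p under 0.05), with a median of 0.092 (0.044 in male-pattern libraries). Nfkbie, which encodes an inhibitor of NF-κB, rose from 12.2 ± 0.799 to 17.6 ± 1.94 FPKQ, Tnfaip3, the ubiquitin editor A20, from 10.7 ± 0.723 to 14.5 ± 1.78, and Tnip3, a partner of A20, from 42.2 ± 3.86 to 53.5 ± 3.39 (SD, n = 5; adjusted p = 0.00154, 0.00739 and 0.0068). Icam1, an adhesion receptor, rose by 0.20. The cytokines Tnf (16.2 ± 1.56 and 17.3 ± 1.85 FPKQ) and Il1b (1.74 ± 0.366 and 1.51 ± 0.427 FPKQ), named after their values were seen, did not pass. Of 13 tested chemokines 2 rose: Cxcl2, a neutrophil attractant, from 3.01, 5.70, 3.50, 5.62 and 3.42 FPKQ to 11.5, 9.18, 6.36, 7.49 and 10.9993 FPKQ (0.95, adjusted p = 0.00624), and Ccl2, the monocyte attractant, from 25.01, 35.8, 36.1, 49.3 and 49.9 to 59.8, 60.7, 54.4, 54.4 and 58.02 FPKQ (0.58, adjusted p = 0.0268). Ccl2 spread up to 49.9 FPKQ within the first set, and its call was lost on leaving out any of WT Rep2, Rep3, Rep6, Rep7 or Rep10. The median of the chemokine list was 0.204 (0.12 in male-pattern libraries).

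Interferon-stimulated genes ran the opposite way. Of 49 tested type I genes, 46 had a negative difference and 16 fell at an adjusted p under 0.05, and none rose (limma; 1 rise and 29 falls at an unadjusted p under 0.05). The median was −0.243 (−0.355 in male-pattern libraries). Stat2 (chr10:128270559-128292849), a transcription factor of the interferon signal, measured 57.2, 61.5, 64.5, 68.4 and 60.04 FPKQ in the first set and 47.2, 38.8, 38.2, 35.8 and 51.4 FPKQ in the second (−0.56 ± 0.0912, SE; adjusted p = 0.00319). Within the second set WT Rep10 and Rep6 were the highest and WT Rep9 the lowest, and none reached the first set. Ddx60, an antiviral helicase, measured 7.10, 6.61, 7.03, 7.01 and 7.09 FPKQ and then 4.81, 4.34, 4.15, 4.10 and 4.87 FPKQ, one of the tightest separations in the list (−0.55, adjusted p = 0.000199). Ifi44, an induced cytoplasmic protein, fell from 8.89 ± 1.35 to 5.27 ± 0.743 FPKQ (SD, n = 5), and the Schlafen genes Slfn5 and Slfn8 from 99.2 ± 5.99 to 76.1 ± 6.12 and from 39.9 ± 1.80 to 30.6 ± 0.941 (adjusted p = 0.00248, 0.00272 and 0.00046). Several defining genes, named after their values were seen, varied too much between animals: Irf7 ranged from 82.3 to 101 FPKQ in the first set and from 46.2 to 85.3 in the second (−0.43, adjusted p = 0.0671), and Isg15 from 58.0 to 81.1 and from 37.2 to 70.9 (−0.41, adjusted p = 0.091). The count was 10 without WT Rep4 and 9 with the Xist level as a covariate, and it was 0 in a limma model that takes the spread from all 20 libraries, where the adjusted p of Stat2 was 0.0549.

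Targets shared with interferon gamma fell as well. In the list of induced GTPases and targets, 7 of 17 tested genes fell and none rose (limma; 0 rises at an unadjusted p under 0.05), with a median of −0.269 (−0.294 in male-pattern libraries). Gbp7 fell from 3.51, 3.90, 3.65, 5.15 and 4.10 to 2.41, 2.71, 2.44, 2.53 and 2.91 FPKQ (−0.48, adjusted p = 0.00436), and Gbp9 from 13.4 ± 0.896 to 10.7 ± 0.429 (SD, n = 5; −0.29, adjusted p = 0.00464); both are guanylate-binding proteins that attack vacuoles of pathogens. Of the immunity-related GTPases, Iigp1 fell from 2.71 ± 0.330 to 1.62 ± 0.412 FPKQ and Irgm2 from 23.7 ± 2.17 to 19.2 ± 1.10 (limma, adjusted p = 0.0118 and 0.0125). None of these calls was kept in the limma model that takes the spread from all 20 libraries. Adjusted p there was 0.105 for Gbp7, 0.398 for Gbp9, 0.195 for Iigp1 and 0.28 for Irgm2. The core of the interferon-stimulated response element, TTTC and TTTC with 2 bases between them, was found on either strand upstream of 18 of 38 type I members with an entry and 6 of the 11 called, against 3.48% of tested genes and 2.98% of promoters. It is shown for 4 genes that fell, with the core in capitals.
Stat2 (chr10:128270251-128270310, + strand): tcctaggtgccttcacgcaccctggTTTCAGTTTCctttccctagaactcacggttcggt
Ddx60 (chr8:61928009-61928086, + strand): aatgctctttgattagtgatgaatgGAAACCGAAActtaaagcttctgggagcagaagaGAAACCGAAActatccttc
Slfn8 (chr11:83020824-83020883, − strand): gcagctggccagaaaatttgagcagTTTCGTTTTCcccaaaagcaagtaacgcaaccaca
Gbp7 (chr3:142530258-142530317, + strand): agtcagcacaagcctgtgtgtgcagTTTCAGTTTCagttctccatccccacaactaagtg
Ddx60 holds the core as 2 copies close to its start. As above, a match is a description of the letters.

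Antigen presentation fell in part. H2-Ab1, the beta chain of the class II molecule I-A, measured 158, 169, 139, 125 and 108 FPKQ in the first set and 112, 67.3, 81.7, 104 and 60.99 FPKQ in the second (−0.73 ± 0.17, SE; adjusted p = 0.0166). The sets overlapped, since WT Rep6 (112) lay above WT Rep5 (108). H2-DMa, which helps exchange the peptide on class II, fell without overlap from 24.9 ± 2.18 to 18.8 ± 1.76 FPKQ (SD, n = 5; adjusted p = 0.00683). These were the 2 called of 11 tested class II genes and none rose (limma; 7 falls and 1 rise at an unadjusted p under 0.05), with a median of −0.364. H2-Aa, the alpha chain, did not pass (−0.55, adjusted p = 0.0677), nor did Cd74, the invariant chain (575 ± 98.04 and 425 ± 84.5 FPKQ, adjusted p = 0.0734), which is named after its values were seen. Of the lists described here, the class II median moved most when only male-pattern libraries were kept (2 against 4), to −0.062. With Xist as a covariate it stayed at −0.345, so sex pattern cannot be told apart from the choice of libraries here. In the first set the 3 female-pattern libraries held 139 to 169 FPKQ of H2-Ab1 and the 2 male-pattern ones 108 and 125, while the female-pattern library of the second set, WT Rep10, held the lowest value of all (61.0). Of 23 tested class I genes 4 fell and 2 rose, the latter being Calr and Pdia3. The class I median was −0.132 (−0.07 in male-pattern libraries). Tap1, the peptide transporter, fell from 42.3 ± 2.57 to 33.8 ± 4.35 FPKQ and H2-K1, the class I heavy chain, from 1101 ± 80.5 to 919.6 ± 77.02 (adjusted p = 0.0257 and 0.0285). These class I calls were weak: none was left without WT Rep2 or without WT Rep3, and the fit of H2 genes can divide fragments between similar copies. B2m, the shared light chain, was abundant, with 4318 ± 303 and 4069 ± 256 FPKQ (adjusted p = 0.413).

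Several receptors of the mature macrophage fell. In the macrophage identity list 8 of 30 tested genes fell and 3 rose, with a median of −0.087 (−0.061 in male-pattern libraries). Mertk and Axl, sister kinases that recognise dead cells through Gas6, fell by 1.44-fold and 1.49-fold. Mertk measured 18.3, 14.9, 18.5, 15.9 and 16.5 FPKQ and then 10.1, 11.2, 10.3, 13.7 and 11.9 FPKQ (limma, adjusted p = 0.00248). Axl measured 67.8, 66.2, 64.4, 65.8 and 53.9 FPKQ and then 48.6, 40.8, 42.2, 46.7 and 34.2 FPKQ (adjusted p = 0.00239). Neither overlapped between the sets. Siglec1, a sialic-acid receptor, fell from 68.2 ± 3.57 to 53.2 ± 5.62 FPKQ, and C1qc, a chain of complement C1q, from 1024 ± 40.1 to 809 ± 79.7 (SD, n = 5; adjusted p = 0.00716 and 0.00831). Cd14, the co-receptor for endotoxin, rose from 638 ± 9.89 to 824 ± 98.1 FPKQ (adjusted p = 0.0111), although WT Rep9 (658) lay close to the first set. The scavenger receptor Cd36 rose from 484 ± 47.5 to 650 ± 127 FPKQ with overlap (limma, adjusted p = 0.0378). Its call was lost on leaving out any of WT Rep1, Rep3, Rep4, Rep5, Rep6, Rep7 or Rep10. Lyz1, named after its values were seen, rose from 5.11 ± 0.883 to 10.0 ± 4.60 FPKQ (limma, adjusted p = 0.0271). Of the 6 Fc receptor genes, which bind antibody, Fcgr4 (−0.36), Fcgr1 (−0.36) and Fcgr2b (−0.26) fell, and the signal chain Fcer1g (−0.17), the neonatal receptor Fcgrt (−0.17) and Fcgr3 (0.05) did not pass. The Fcgr2b call was lost on leaving out any of WT Rep1 to Rep8. Il4ra, the interleukin 4 receptor chain, fell from 16.9 ± 1.255 to 11.5 ± 0.627 FPKQ (adjusted p = 0.000378), one of 3 falls beside 1 rise among 11 tested genes of alternative activation. Ms4a4a, a tetraspan membrane protein of alternatively activated macrophages, fell from 32.95, 24.9, 33.1, 36.6 and 28.8 to 18.9, 19.8, 22.2, 19.5 and 14.6 FPKQ (adjusted p = 0.003). By contrast Csf1r, the CSF-1 receptor, had 961 ± 37.5 and 909 ± 22.9 FPKQ and Adgre1, the F4/80 antigen, 512 ± 17.9 and 483 ± 56.1 (adjusted p = 0.238 and 0.413; both named after their values were seen). Markers of monocytes and progenitors, from which these macrophages grow, moved down beside these genes. Of 6 tested markers 2 were called, Kit and F13a1, both lower (limma; 4 lower and none higher at an unadjusted p under 0.05), with a median of −0.305 (−0.317 in male-pattern libraries). The mean log2 level of the 6 was 3.49 to 3.69 in the first set and 3.02 to 3.41 in the second, without overlap and lowest in WT Rep9. The summed level of all 11 markers, most of it Irf8, was 144 to 160.4 and 133 to 158 FPKQ, and 5 of the 11 stayed under 1 FPKQ in every wild-type library, none of them at 0 in all 10. Their part in the macrophage results was not tested. In bulk RNA, fewer cells of a kind and less RNA per cell cannot be told apart.

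Metabolic genes rose in small steps. Of 29 tested genes of glycolysis and the hypoxia response, 11 rose and none fell (limma; 1 fall at an unadjusted p under 0.05), with a median of 0.111 (0.114 in male-pattern libraries). Slc2a1, the glucose transporter Glut1, rose from 14.8 ± 1.22 to 21.1 ± 2.56 FPKQ, Vegfa, the vascular growth factor, from 38.1 ± 3.69 to 49.9 ± 3.55, and Pfkl, a phosphofructokinase, from 17.7 ± 1.01 to 21.2 ± 0.839 (SD, n = 5; adjusted p = 0.00445, 0.00529 and 0.00705). Ankrd37, a target of hypoxia-inducible factor, was low and rose from 3.49 ± 0.8503 to 5.61 ± 0.698 FPKQ (limma, adjusted p = 0.0116). Other members are named after their values were seen. Egln3 rose (0.39), while Pdk1 (0.15), Ndrg1 (0.05), Bnip3 (0.04), Car9 (−0.15) and Higd1a (−0.32) did not pass. Hk2 (−0.13) did not pass either, although it was lower in every library of the second set. Of 23 genes of fatty acid synthesis and PPAR targets 8 rose and none fell (limma; 0 falls at an unadjusted p under 0.05; median 0.138), among them Elovl5, an elongase (0.29), and Plin2, which coats lipid droplets (0.35). Of 23 genes of cholesterol synthesis 7 rose and none fell (limma; 1 fall at an unadjusted p under 0.05; median 0.211, and 0.057 in male-pattern libraries), with Msmo1 (0.28), Sc5d (0.32) and Pmvk (0.47), all enzymes of the pathway, as examples. This count moved with single libraries, from 2 without WT Rep3 or without WT Rep10 to 11 without WT Rep9; it was 4 without WT Rep1 or Rep2 and 3 without WT Rep5, Rep6, Rep7 or Rep8. Of 15 targets of the sterol sensor LXR 3 fell and 2 rose, with a median of −0.091 (−0.002 in male-pattern libraries). Abca1, which exports cholesterol to lipoproteins, fell from 33.7, 31.8, 34.3, 27.3 and 28.98 to 17.6, 19.2, 17.3, 27.2 and 16.6 FPKQ (−0.67, adjusted p = 0.00463), and WT Rep9, at 27.2, stood just under the lowest library of the first set. Mylip, the ligase that degrades the LDL receptor, fell from 29.6 ± 2.10 to 20.2 ± 2.66 FPKQ (adjusted p = 0.0021).

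Fgl2, a fibrinogen-like immune regulator, had the largest fall among called genes of at least that median level, from 18.7, 17.6, 16.4, 15.9 and 14.3 FPKQ to 8.40, 8.69, 8.87, 7.79 and 9.36 FPKQ (−0.87 ± 0.0683, SE; adjusted p = 6.89e-05). No list of splicing genes was examined, and the following pair is given as single genes. Clk1, a kinase of splicing factors, fell from 61.9, 63.9960, 74.8, 76.5 and 73.9 to 40.3, 39.9, 40.7, 55.7 and 37.99 FPKQ, and Tra2a, a splicing factor, rose from 30.7, 30.7, 34.3, 35.8 and 35.1 to 57.04, 50.2, 55.1, 58.1 and 51.5 (adjusted p = 0.00151 and 0.00012). Both pairs of ranges were separate. Stap1, a signalling adaptor of blood cells, rose by 0.73 and Efr3b, a scaffold of a lipid kinase at the plasma membrane, by 0.65. Falls of similar size were seen in Tsc22d3, a glucocorticoid-induced leucine zipper protein (−0.60), Sgsh, a lysosomal sulfatase (−0.55), Fam213b (−0.52) and F13a1, a coagulation factor subunit made by macrophages (−0.80), with adjusted p-values of 0.000772, 0.000186, 0.000303 and 0.00154. In the list of metal response genes the metallothioneins Mt1 (95.4 ± 16.2 to 67.8 ± 6.13 FPKQ) and Mt2 (17.6 ± 3.36 to 11.4 ± 1.36 FPKQ) fell, the zinc importer Slc39a10 rose (0.33), and the exporter Slc30a1 (−0.20) and the factor Mtf1 (0.09) did not pass. WT Rep1, with 67.7 FPKQ of Mt1, lay within the range of the second set. The median of the metal response list was −0.198 (0.012 in male-pattern libraries). The Slc39a10 call was lost on leaving out any of WT Rep2, Rep3, Rep4, Rep5, Rep7, Rep8 or Rep10.

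In 4 large programs the share of called genes was below the 13.2% of all tested genes. The calls were 2 of 36 lysosomal genes (1 up, 1 down; median −0.001), 2 of 29 cytosolic ribosomal proteins (both down; −0.066), 2 of 26 proteasome subunits (both up; 0.074) and 3 of 25 nuclear-encoded respiratory chain genes (1 up, 2 down; −0.052). In 3 others the share was above it while the median stayed near 0, with 4 of 18 Atf4 amino acid response genes (1 up, 3 down; −0.015), 4 of 21 Nrf2 antioxidant genes (3 up, 1 down; 0.028) and 6 of 26 genes of disease-associated microglia (5 up, 1 down; 0.018). Single libraries moved these counts: 6 respiratory chain genes fell without WT Rep1, 5 proteasome subunits rose without WT Rep7, 1 microglia gene rose without WT Rep4 and 6 without WT Rep8, and 1 to 2 Atf4 genes fell on leaving out any 1 library.

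**Figure D3:**
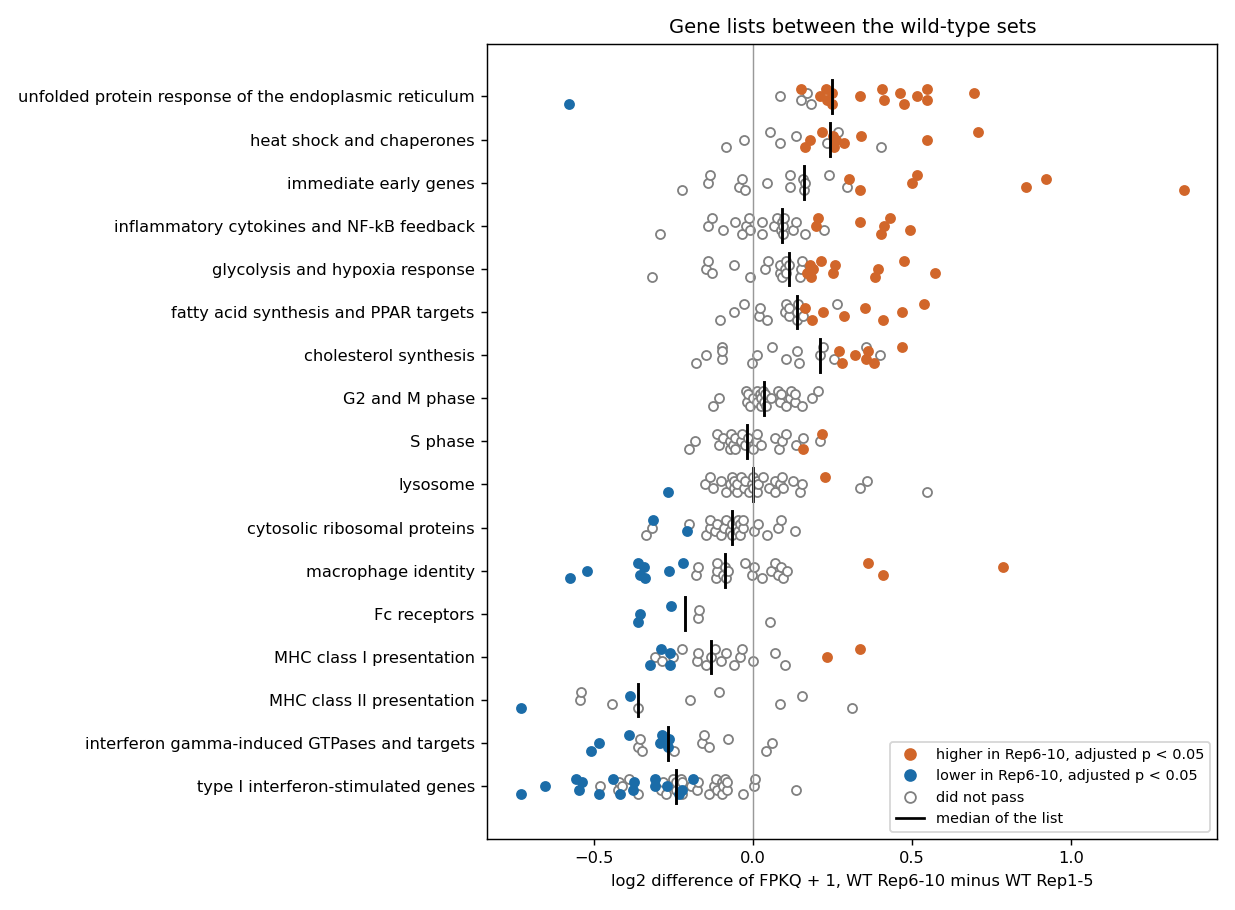
Differences of the tested members of 17 gene lists (points; log2 of FPKQ + 1, Rep6 to Rep10 minus Rep1 to Rep5), filled where the adjusted p was under 0.05, with the median of each list as a black line. The endoplasmic reticulum list (median 0.247) and the type I interferon list (−0.243) lie on opposite sides of 0, and the G2 and M phase list (0.035) has no filled point.

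Programs also differed in how much single libraries varied within a set. The mean log2 level of the endoplasmic reticulum list lay between 6.03 and 6.12 in the first set and between 6.30 and 6.42 in the second, a gap wider than either range. Heat shock genes, with 5.22 to 5.34 and 5.45 to 5.56, and immediate early genes, with 4.24 to 4.36 and 4.47 to 4.70, did not overlap either, but their gaps were narrower than the range of at least 1 set. The type I interferon list spanned 5.49 to 5.70 in the first set but 5.00 to 5.48 in the second, where WT Rep9 (5.00) and WT Rep7 (5.20) were low and WT Rep6 and Rep10 (5.48 each) nearly reached WT Rep5 (5.49). MHC class II spanned 5.57 to 5.91 and 5.24 to 5.66, and cholesterol synthesis 4.86 to 5.09 and 4.88 to 5.36; both ranges overlapped. G2 and M phase genes varied between animals in both sets, from 3.48 (WT Rep3) to 3.84 (WT Rep2) and from 3.56 (WT Rep10) to 3.86 (WT Rep7). Over all tested genes the median SD of log2 values was 0.0902 in the first set and 0.104 in the second, and for type I interferon genes it was 0.107 and 0.207.

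**Figure D4:**
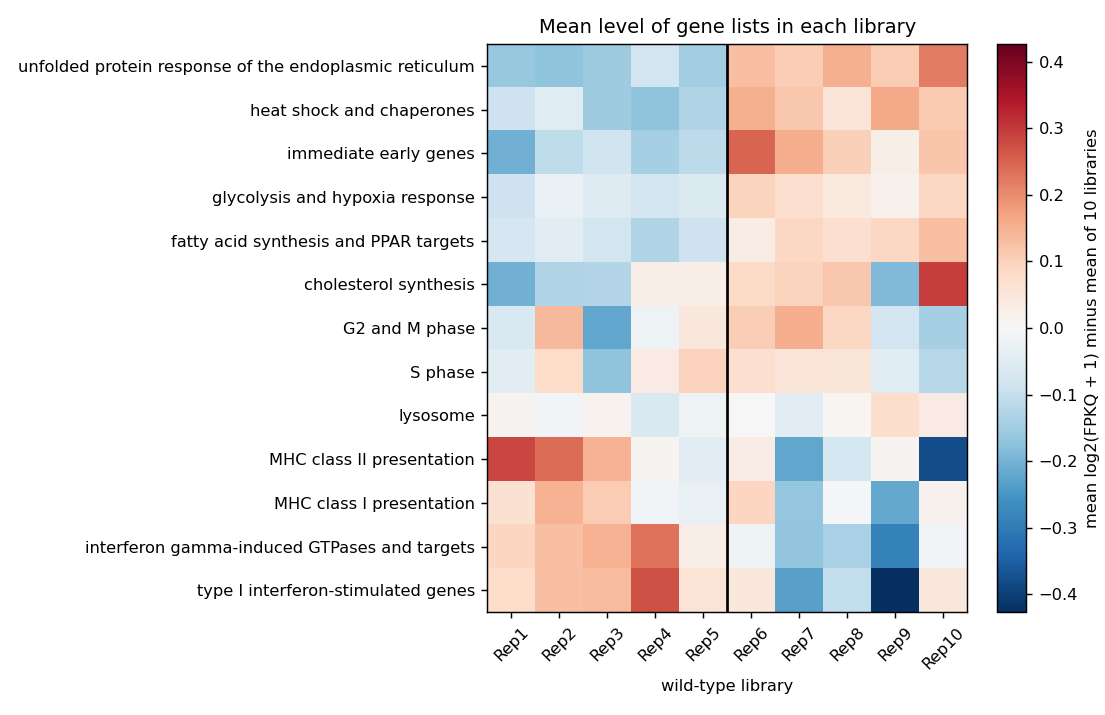
Mean log2(FPKQ + 1) of the tested members of 13 gene lists (rows) in each wild-type library (columns), minus the mean over the 10 libraries. The first 5 rows change colour at the line between the sets, while cholesterol synthesis, MHC class II and the interferon lists also vary within them, with WT Rep9 lowest for both interferon lists.

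Trem2 itself (chr17:48346401-48354147), the lipid-sensing receptor that the mutants alter, measured 814, 813, 901, 802 and 860.4 FPKQ in the first set and 809, 751, 858, 761 and 691 FPKQ in the second. The difference of −0.12 was not past the threshold in an exact two-sided permutation test over every split of the 10 libraries (p = 0.0794, where 0.00794 is the smallest possible). Without WT Rep8 it was −0.155, with an exact permutation p of 0.0159. Tyrobp, its signalling adaptor, had 1300 ± 88.4 and 1218 ± 101 FPKQ (adjusted p = 0.366; named after its values were seen). For scale, the same fit called 5380 of 10866 genes (49.5%) between KO and the first set and 1606 of 10802 (14.9%) between R47H and the second set; 1191 (11.0%) and 419 (3.88%) differed at least 1.5-fold, against the 0.657% between the wild-type sets. Each of these comparisons shares its control set with the one described here, so no overlap of their genes is given. By Xist, KO and R47H each held 4 libraries of female and 1 of male pattern. The second wild-type set held 1 and 4, so genotype and sex pattern are mixed in R47H against that set. Its count was lower with the Xist level as a covariate, as given near the end.

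KO and R47H share no library with the wild-type sets, and their own difference was set beside that of the sets. R47H against KO called 3514 of the 10803 genes (32.5%), 2012 higher (18.6%) and 1502 lower (13.9%). Of the 1424 genes called between the wild-type sets, 1193 (83.8%) had the same sign in R47H minus KO, against 64.3% of all tested genes, and 713 were also called there with that sign. In the endoplasmic reticulum list 14 of 16 called members had the same sign, close to the 83.8% of all called genes. Of these 16, 12 were also called with that sign, beside 713 of all 1424. For heat shock the counts were 10 and 8 of 10. Hspa5 lay at 388 to 405 FPKQ in the 5 KO libraries and at 552 to 578 in the 5 R47H libraries, Creld2 at 12.1 to 14.7 and 21.4 to 26.5, and Hsph1 at 9.69 to 10.9 and 12.9 to 17.9. The Creld2 and Hsph1 values lay near the first set in KO and near the second in R47H, while Hspa5 in KO lay between the wild-type sets. Other called members of the endoplasmic reticulum list went either way. Mean Manf in KO was 55.9 FPKQ, beside 59.9 and 86.3 in the first and second wild-type sets. Mean Calr in KO was 576 (463 and 586 in the sets) and mean Herpud1 38.1 (22.5 and 31.3). Cirbp was lower in R47H (14.2 to 21.2) than in KO (20.3 to 31.4), with overlap. Type I interferon genes did not follow the wild-type difference: 8 of 16 called members had the same sign and none was called with it by limma (0 at an unadjusted p under 0.05). Among the 49 tested, 10 were called higher in R47H than in KO and 0 lower, beside the 18.6% and 13.9% of all tested genes. The median of the list was 0.197 there, against −0.243 between the wild-type sets. Stat2 ranged from 29.8 to 50.1 FPKQ in KO and from 33.2 to 66.3 in R47H. Myc measured 2.40 to 3.58 FPKQ in KO, 9.08 to 11.7 in the first wild-type set, 7.60 to 11.4 in R47H and 16.6 to 24.3 in the second wild-type set. Its R47H range thus overlapped the first wild-type set. Genotype and set cannot be told apart in R47H against KO.

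**Figure D5:**
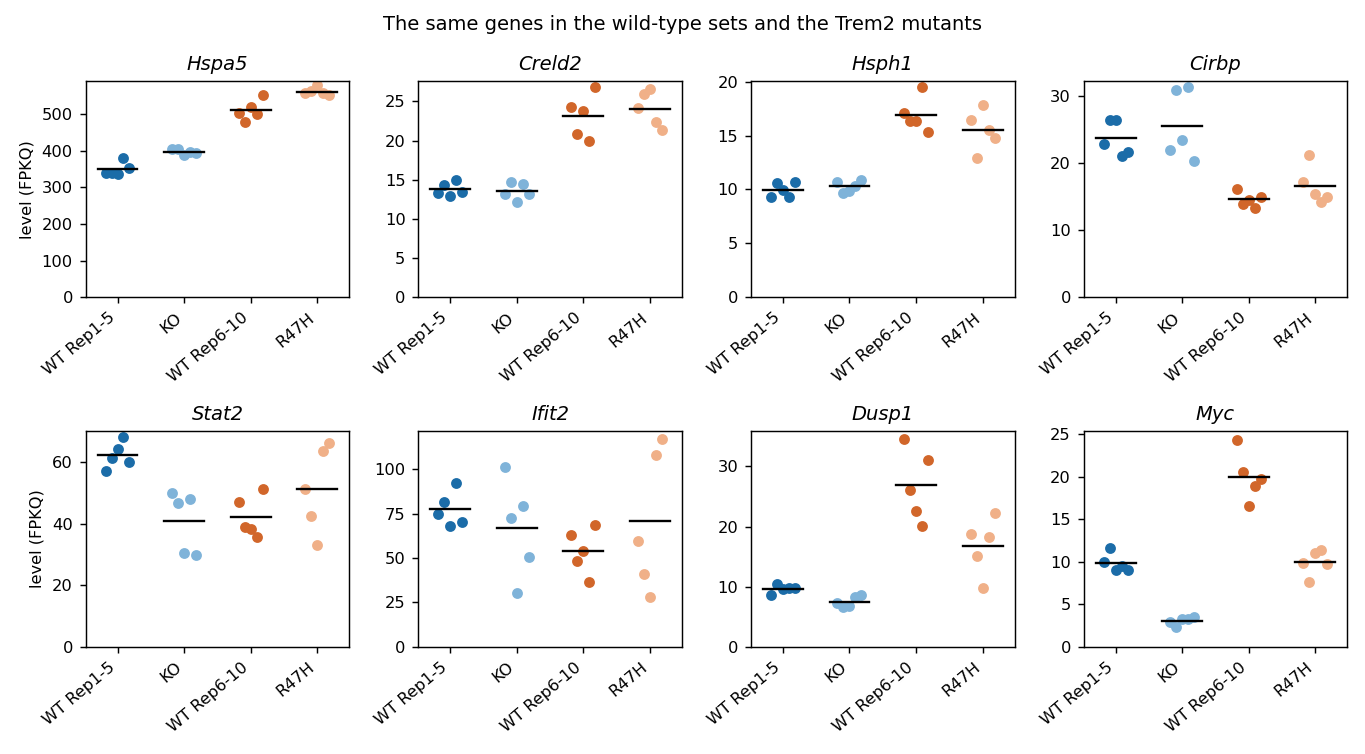
Levels of 8 genes (FPKQ, linear axis from 0) in each library of the wild-type sets, KO and R47H (n = 5 each; bars are means). For Creld2 and Hsph1 the KO libraries lie by WT Rep1 to Rep5 and the R47H libraries by WT Rep6 to Rep10. Hspa5 in KO lies between the wild-type sets, and for Stat2 and Ifit2 the mutant libraries spread across both wild-type sets.

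Markers of other cells that a marrow culture could hold were mostly low. The summed level of B cell markers was 78.9 to 90.1 FPKQ in the first set and 75.4 to 93.8 in the second. For T and NK cell markers it was 88.9 to 111.5 and 86.7 to 129.4. Dendritic cell markers, most of it Bst2, summed to 421.5 to 477.4 and 368.2 to 506.2. In these lists 9 of 12, 13 of 14 and 8 of 13 members stayed under 1 FPKQ throughout, and only Itgax, described below, was called. No erythroid, mast cell or stromal marker reached a mean of 1 FPKQ. Of 8 tested neutrophil markers, Csf3r, the receptor for the granulocyte growth factor, was called (32.9 ± 2.58 to 26.7 ± 2.43 FPKQ). Of 7 tested osteoclast markers Dcstamp, a fusion receptor, was called (11.4 ± 3.32 to 18.8 ± 5.12 FPKQ). Both shares were near the 13.2% of all tested genes. The summed level of the 10 osteoclast markers was 136 to 202 FPKQ in the first set and 179 to 299 in the second; its part in other results was not tested. The Dcstamp call was lost on leaving out any of WT Rep1, Rep3, Rep4, Rep5, Rep6, Rep7 or Rep9. Of the monocyte and progenitor markers described above, Kit, a receptor of marrow progenitors, fell (4.89 ± 0.240 to 3.94 ± 0.439 FPKQ), and this call was lost without WT Rep4 or without WT Rep6.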

How the data were processed

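Poly-A RNA of 20 mouse macrophage libraries was sequenced with paired 75-base reads on strand-specific libraries, per the labels' protocols. For each library the authors deposited a file of 51456 gene symbols whose FPKQ column is taken as FPKM rescaled per library, because the 71.5th percentile of coding genes always fell at 10. The sources used here do not define it. The submitters' processing notes name RSEM and GRCm38; RSEM can divide fragments between similar genes. Depth was estimated from low values of genes with 1 transcript, of which 85.7% to 88.3% were whole fragments within a tolerance of 0.1; no count test was run. Mitochondrially encoded genes were not analysed here.

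The 10 wild-type libraries, which the protocols describe as from separate animals, were compared as 5 against 5 on log2(FPKQ + 1), so folds of low genes are understated. Genes averaging 1 FPKQ or more were fitted with limma 3.58.1 (lmFit, eBayes with a trend) in R 4.3.3, with Benjamini-Hochberg adjustment over all 10803 genes, and "called" means an adjusted p under 0.05. On simulated data of the same size the fit recovered 64.2%, 86.6% and 98.5% of genes changed 1.25, 1.5 and 2-fold, with 8 false calls. The simulated noise was independent for each gene and library, so it does not cover shifts that many genes of a library share. The members and the 53 gene lists were chosen with earlier results of these data known, and lists carry no test of their own. Named genes were the 15 largest rises and 15 largest falls among called genes without overlap and of at least the median level, up to 4 members of each list by adjusted p, and all members of lists of up to 6; the text gives those of the lists it describes. Gene positions came from GENCODE M21, which held 89.2% of the symbols, and promoters from RefSeq (GRCm38.p6). Alternatives covered pseudocount, filter, scaling, covariates, the all-library model and each library left out. Python 3.11.15 with pandas 2.3.3 was used for summaries.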

Additional observations from a re-analysis of the deposited data

Results flagged for a closer look

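Among 266 groups of 5 values examined (the genes named here and the lists, in each set), 13 (4.89%) held a library far from the other 4 by Dixon's ratio of gap to range, with 0.71 as the limit; chance alone flags about 1 group in 20.

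WT Rep9 stood apart within the second set in 3 genes. Its Ier3 was the lowest, 13.1 FPKQ against 18.5 to 21.03 in the other 4 (ratio 0.723), its Cd14 was the lowest, 658 against 833 to 915 (0.716), and its Clk1 was the highest, 55.7 against 37.99 to 40.7 (0.819). In WT Rep6 Nfkbie was high, 20.98 FPKQ against 16.2 to 17.4 (0.720).

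In the first set WT Rep5 was low in Axl, 53.9 FPKQ against 64.4 to 67.8 (ratio 0.778), and in Entpd4, 2.44 against 10.3 to 12.6 (0.866). WT Rep2 was low in Ddx60, 6.61 against 7.01 to 7.10 (0.809), and high in Tyrobp, 1460 against 1250 to 1280 (0.832). WT Rep3 was high in Egr1, 6.52 against 4.06 to 4.45 (0.815), and low in Ticam1, 12.8 against 13.8 to 14.0 (0.832). WT Rep4 was high in Irgm2, 27.5 against 22.3 to 23.1 (0.823), and in the mean log2 level of the unfolded protein response list, 6.12 against 6.03 to 6.05 (0.756). WT Rep1 was low in Mt1, 67.7 against 97.9 to 110 (0.754).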

How the results depend on the processing

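No paired analysis was possible because the sets share no replicate number. Of the 131 rule-named genes called between the sets, 63 kept their call under every change of pseudocount, filter, scaling, fit, covariate or single library left out, and none reversed. The 1424 calls became 902 with no filter on low values, 698 in the model of all 20 libraries, 846 with Xist as a covariate, 941 with fragment size as a covariate and 816 to 1484 on leaving out 1 library. The 71 genes at 1.5-fold became 145 with a pseudocount of 0.1, 24 with 5, 46 with a minimum mean of 5 FPKQ and 58 to 83 without 1 library. Chosen after seeing the data, male-pattern libraries alone (2 against 4) gave 149 calls, with fewer samples; 131 of the 131 named genes kept their sign there and 96 lost their call.

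Male-pattern libraries alone left 3 risen heat shock genes, 3 immediate early genes, 4 of the unfolded protein response, 1 of glycolysis and hypoxia, 1 inflammatory gene, 0 of cholesterol synthesis and 0 of fatty acids, and 3 fallen type I interferon genes, 2 interferon gamma targets, 0 of MHC class II, 0 of class I and 0 of macrophage identity. The model of all libraries left 6 of glycolysis and hypoxia, 4 inflammatory, 4 cholesterol and 4 fatty acid genes risen, and 0 type I interferon, 2 interferon gamma, 0 class I and 2 identity genes fallen. With no filter these were 9 type I interferon, 1 class II, 0 class I and 5 identity genes fallen and 2 cholesterol genes risen. With Xist as a covariate they were 9 type I interferon and 0 class I genes fallen and 3 cholesterol genes risen, and with fragment size 2 class I and 4 cholesterol genes. Calling by no overlap gave 1 class II, 2 class I and 2 cholesterol genes. With neither WT Rep1 nor WT Rep9, also chosen after seeing the data, 1 class I and 5 identity genes fell. The cause of these changes was not tested, other than fewer samples in the smaller fits.

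On leaving out 1 library, the counts ran from 13 to 16 for the unfolded protein response, 8 to 10 for heat shock, 5 to 8 for immediate early genes, 8 to 12 for glycolysis and hypoxia, 5 to 6 for inflammatory genes, 6 to 8 for fatty acids, 2 to 11 for cholesterol synthesis, 10 to 21 for type I interferon, 5 to 9 for interferon gamma targets, 2 to 4 for class II (4 without WT Rep9), 0 to 5 for class I and 5 to 8 for macrophage identity (5 without WT Rep1, Rep3, Rep5 or Rep6). The Trem2 difference ran from −0.155 to −0.0769. The median correlation of WT Rep9 with its set was 0.9825 and 0.9909 with pseudocounts of 0.1 and 5, 0.9953 with no filter and 0.9846 with a minimum mean of 5. KO against the first set gave 3044 calls with fragment size as a covariate and 4833 to 5239 without 1 library; R47H against the second gave 681 with Xist, 306 with fragment size and 1086 to 1616. Depth limits genes near 1 FPKQ most.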

Other observations

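In the circadian list 2 of 15 tested genes fell and 1 rose: Dbp, a clock output factor, measured 10.3, 11.2, 11.98, 11.3 and 9.71 FPKQ in the first set and 7.90, 8.19, 8.82, 9.10 and 8.88 FPKQ in the second (adjusted p = 0.0081). Nr1d2, a repressor of the clock, measured 17.4, 16.8, 18.2, 17.2 and 19.4 and then 13.7, 14.1, 13.9, 16.6 and 13.1 FPKQ (adjusted p = 0.0107). Neither overlapped, and both were also lower in R47H than in KO. Arntl, the core activator, did not pass (−0.17, adjusted p = 0.0727). Culture or harvest hours are not given in the labels. Spp1, the secreted osteopontin, was among the most abundant genes that rose, from 5137 ± 432 to 7074 ± 597 FPKQ (SD, n = 5; adjusted p = 0.00358). Of 28 tested genes of integrins, adhesion and matrix 4 rose and 4 fell, with a median of 0.059 (7 rises without WT Rep8). The elastase Mmp12 (0.83), the protease inhibitor Timp1 (0.38), the integrin Itgax (0.70) and Icam1 (0.20) rose; Mmp12 and Timp1 are named after their values were seen, and the Itgax call was lost without WT Rep1, Rep4, Rep5, Rep6, Rep7 or Rep10. By contrast, the matrix proteins Thbs1 (−0.51) and Tgfbi (−0.37), the proteoglycan Sdc3 (−0.28) and F13a1 (−0.80) fell. The crosslinking enzyme Tgm2, of the alternative activation list, fell (−0.35). The C5a receptor C5ar1 rose by 0.22, in a complement list with 2 rises and 4 falls among 14 tested (1 to 4 falls without 1 library, 1 without WT Rep2 or Rep3). The Toll-like receptor adaptor Ticam1 rose by 0.23, in a list with 4 rises and 2 falls among 23 tested (2 to 4 rises without 1 library, 2 without WT Rep5, Rep6 or Rep10). The kinase Sgk1 rose by 0.34, in a glucocorticoid list with 2 rises and 2 falls among 10 tested, whereas Sgk1 was lower in R47H than in KO.

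Genes known to differ between C57BL/6 substrains varied between single libraries, and none of the 6 tested was called between the sets (limma; 3 were higher in the second set at an unadjusted p under 0.05; the labels give no substrain). Entpd4 measured 10.3, 11.1, 12.6, 10.8 and 2.44 FPKQ in WT Rep1 to Rep5 and 11.7, 14.8, 9.67, 12.6 and 9.67 FPKQ in WT Rep6 to Rep10, so WT Rep5 alone was low. Nnt, a mitochondrial transhydrogenase, measured 11.3, 10.1, 5.90, 17.5 and 9.95 and 13.7, 17.6, 14.7, 23.2 and 15.1 FPKQ (adjusted p = 0.0708), and Wdfy1 5.84, 7.66, 7.66, 7.18 and 11.9 and 8.21, 14.4, 10.54, 13.96 and 12.8 (adjusted p = 0.0562). Ide, a protease of insulin, ranged from 15.3 to 27.8 FPKQ in the first set and from 21.6 to 33.9 in the second.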
